A study of Mus musculus with 6 samples.

Results

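The MYC, MAX and MXD network was followed in mouse Neuro2a neuroblastoma cells given D-serine. It was taken as the 9 rows of the gene table with the symbols Myc, Mycn, Max, Mxd1, Mxd3, Mxd4, Mxi1, Mnt and Mga, of 24391 genes in all. Poly(A) RNA was sequenced in 6 libraries, 3 from control cells that received vehicle and 3 from cells that received D-serine at 5 mM. Both groups spent 18 h in the same medium, named D-MEM(-SG) in the labels, with serum added. Neuro2a is 1 established line, and the labels do not say whether the numbered samples were grown separately, so p-values measure only the spread between these libraries, which may be technical. D-serine, the D enantiomer of the amino acid serine, binds NMDA receptors of neurons together with glutamate.

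The proteins of the network are transcription factors with a basic helix-loop-helix and leucine zipper domain that work in pairs. MYC and MYCN pair with MAX, bind DNA at the E-box CACGTG and raise transcription of growth genes, while MXD proteins, MXI1 and MNT compete for MAX and recruit SIN3 and histone deacetylases to the same sites. MYCN is the family member best known in neuroblastoma, where amplification of its gene marks aggressive human tumours.

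All 9 genes were expressed highly enough to be tested. With D-serine, Myc rose by 18.5% and Mycn rose by 10.9%, while Mnt, which encodes a repressor that pairs with MAX, fell by 14.2%. The other 6 genes did not pass the test. This is 3 of 9 at an adjusted p under 0.05 in edgeR's quasi-likelihood test (Benjamini-Hochberg over all 13366 tested genes), where 9.74% of all tested genes passed, 4.84% higher and 4.9% lower. In the same 3 genes of 9 every D-serine library lay on one side of every control library, which held for 32.9% of all tested genes. Because the RNA is from whole cultures, fewer cells with a transcript and less of it per cell cannot be told apart.

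Libraries summed to between 32518483 and 40024265 counts. D-serine replicate 1 stood apart: genes with long exons had relatively few counts in it. Its deviation in log2 CPM, counts scaled to a common library size, had a slope on log2 exon length of -0.072. That slope was 0.0058 and -0.0040 in D-serine replicates 2 and 3 and 0.036, 0.019 and 0.015 in control replicates 1 to 3. Every D-serine library thus lay below every control library in this slope, and leaving out D-serine replicate 1 does not remove this difference. Of 16 markers of sympathoadrenal neuroblastoma cells and neurons, 14 were at 1 CPM or more, while Nefl and Nefm were at or near 0. Among the 14, Hand2 had a control mean of 242 CPM, but Th and Dbh were little above that limit, at 1.49 and 1.53 CPM. The markers of glia, fibroblasts, immune, endothelial and epithelial cells summed to at most 6.90 CPM per list in any library. Of these, Col3a1, Lum, Olig2, Cd3e and Kdr had no count at all.

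Levels were first compared between the genes per length, as TPM (counts divided by summed exon length and scaled to the same total in each library). In control libraries Myc was the most abundant at 337 ± 7.02 TPM (SD, n = 3), 2.61 times the level of Mycn at 129 ± 1.70 TPM. Max, the shared partner, followed closely at 125 ± 0.347 TPM. The genes of the repressor arm were far lower, with Mnt at 45.2 ± 0.0693 TPM, Mxd4 at 35.0 ± 4.02 TPM, Mxi1 at 33.2 ± 0.661 TPM, Mxd3 at 26.4 ± 2.51 TPM and Mxd1 at 10.5 ± 0.806 TPM. Mga, a very large protein that also binds MAX and serves in a Polycomb complex, stood at 39.8 ± 3.09 TPM. In control, every library of Myc, Mycn, Max, Mnt, Mxi1 and Mxd3 lay above every library of the gene next below it. Mga and Mxd4, and Mxd4 and Mxi1, overlapped. With D-serine, Myc stood at 395 ± 2.32 TPM, Mycn at 142 ± 4.01 TPM and Max at 123 ± 5.87 TPM. Mnt, at 38.4 ± 1.87 TPM, now overlapped Mga, at 37.3 ± 6.70 TPM. Mxd4 at 30.3 ± 5.52 TPM and Mxi1 at 33.1 ± 1.96 TPM again overlapped, and Mxd3 at 28.6 ± 0.955 TPM and Mxd1 at 10.0 ± 0.439 TPM kept the lowest means. Mxd3, at 28.0 to 29.7 TPM in the D-serine libraries, overlapped Mxd4 and Mga, which held 23.9 and 29.6 TPM in D-serine replicate 1. Mycn lay above Max within each group, but its control libraries overlapped Max in D-serine libraries.

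**Figure D1:**
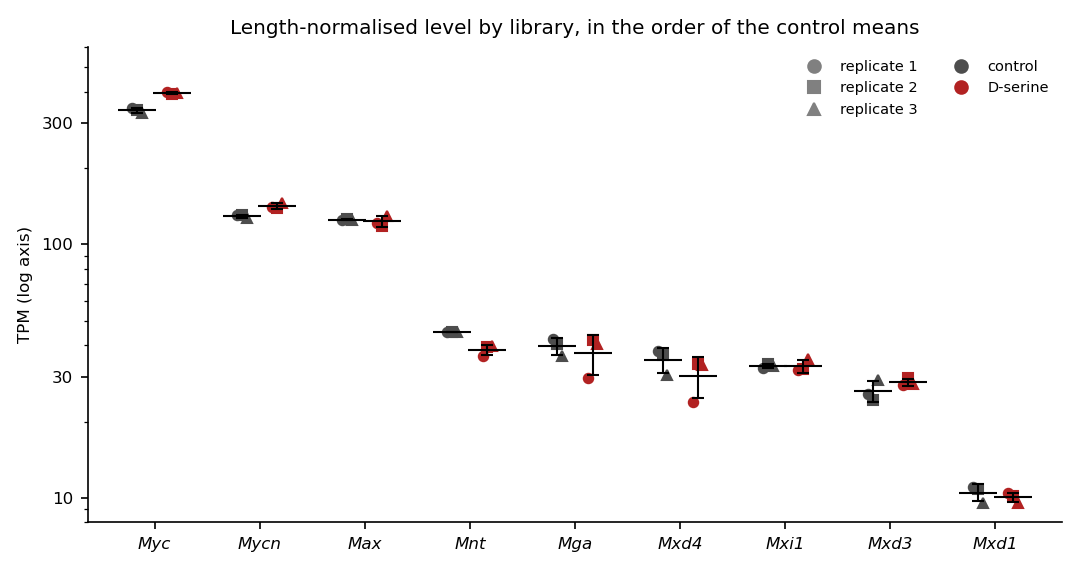
TPM of the 9 network genes on a log axis, in the order of the control means (control grey, D-serine red, 1 point per library, bars mean ± SD, n = 3 each). Myc stands alone above 330 TPM, Mycn and Max lie between 118 and 146 TPM, and Mxd1 is lowest.

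Myc encodes the broadly acting member of the family. Its gene was listed on chromosome 15 from 61816896 to 61821916, plus strand, with 3 exon blocks. Control replicates 1 to 3 held 343, 341 and 339 CPM after TMM scaling, which sets library sizes by a trimmed mean of log ratios. D-serine replicates 1 to 3 held 419, 392 and 401 CPM. All D-serine libraries were above all control libraries, and the control libraries lay within a coefficient of variation of 0.639%. The log2 fold change was 0.25 (SE 0.041, 95% interval 0.16 to 0.33, edgeR adjusted p = 0.00775). Without D-serine replicate 1 the value was 0.22 (adjusted p = 0.000333). Without control replicate 2 the value was 0.25 but the adjusted p was 0.0548, and this was the 1 of 16 alternative fits in which Myc was not past the threshold.

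Mycn, the neural and neuroblastoma paralogue, was listed on chromosome 12 from 12942899 to 12948642, minus strand, with 3 exon blocks. Its control libraries held 141, 142 and 141 CPM and its D-serine libraries 159, 150 and 161 CPM. The groups did not overlap, and D-serine replicate 2 was the closest to control. The log2 fold change was 0.15 (SE 0.044, 95% interval 0.056 to 0.24, edgeR adjusted p = 0.0475). That call was marginal and held in 10 of 16 alternative fits. Among the others, it was lost without control replicate 1 (adjusted p = 0.146), control replicate 2 (0.150), control replicate 3 (0.113) or D-serine replicate 3 (0.160), and with DESeq2 size factors in edgeR (0.0510), while the log2 fold change stayed between 0.13 and 0.18 in the fits without 1 library. With each library's trend on exon length removed it was 0.14 (adjusted p = 0.0131).

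Max encodes the partner that the other proteins of the network share, although some of the repressors also pair with MLX. It was listed on chromosome 12 from 78038256 to 78063235, minus strand. Control libraries held 104, 106 and 107 CPM and D-serine libraries 107, 98.7 and 110 CPM, so that the D-serine libraries enclosed the control libraries. The log2 fold change was -0.0037 (SE 0.050, edgeR adjusted p = 0.974), with a 95% interval from -0.11 to 0.10, and its sign turned under upper quartile scaling (0.026) and library totals (0.026).

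Mnt, a repressor expressed in dividing cells together with MYC, was listed on chromosome 11 from 74644426 to 74659227, plus strand. Control libraries held 86.1, 87.3 and 88.8 CPM and D-serine libraries 73.0, 75.1 and 76.9 CPM. The groups were separated by a gap larger than the range of either group. The log2 fold change was -0.22 (SE 0.046, 95% interval -0.32 to -0.12, edgeR adjusted p = 0.0149). It was called in 12 of 16 alternative fits. Without control replicate 1, 2 or 3 the adjusted p was 0.0582, 0.0719 and 0.0563, with log2 fold changes of -0.23, -0.22 and -0.21. Without D-serine replicate 1 it was -0.20 (adjusted p = 0.00625).

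**Figure D2:**
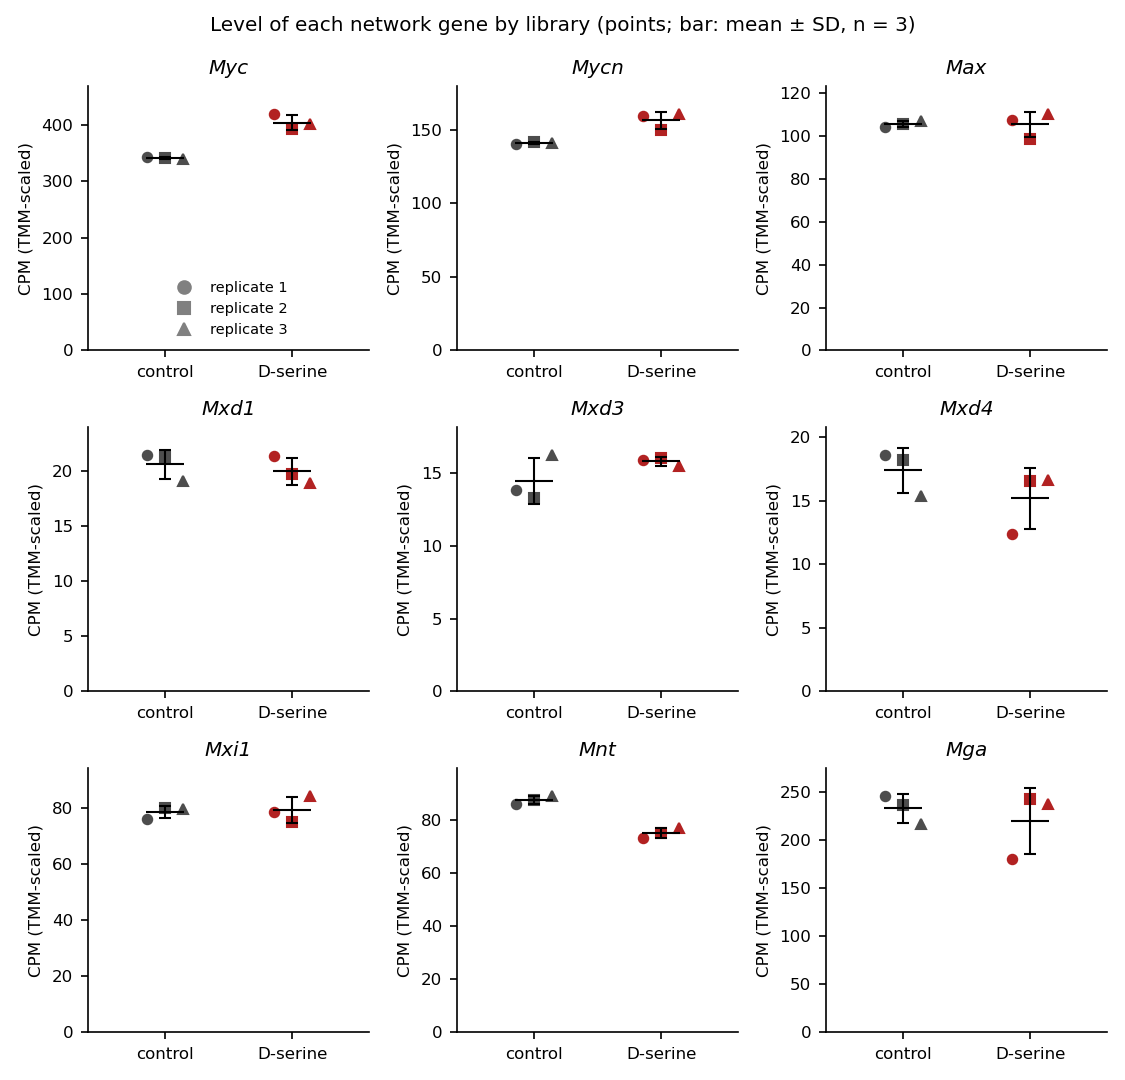
TMM-scaled CPM of each network gene in control and D-serine libraries (symbols mark the replicate number, bars mean ± SD, n = 3 each, axes from 0). The groups are apart in Myc, Mycn and Mnt and overlap in the other 6 genes.

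None of the 3 MXD genes, nor Mxi1, passed the test. These encode repressors that are typically raised as cells leave the cycle, except Mxd3, which is linked to S phase. Mxd1 was listed on chromosome 6 from 86597039 to 86619153, minus strand. It held 21.4, 21.3 and 19.1 CPM in control and 21.3, 19.7 and 18.9 CPM with D-serine (log2 fold change -0.043, SE 0.077, edgeR adjusted p = 0.756). Mxd3 was listed on chromosome 13 from 55426529 to 55431091, minus strand. It held 13.9, 13.3 and 16.2 CPM in control and 16.0, 16.1 and 15.5 CPM with D-serine (0.13, SE 0.087, adjusted p = 0.362), with control replicate 3 above all D-serine libraries. The exons of Mxd3 share 105 bases with Prelid1 on the opposite strand, a gene with far higher counts, and the strand setting of the counting is not given in the sources used here, so its counts are uncertain.

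Mxd4 was listed on chromosome 5 from 34519229 to 34530359, minus strand. It held 18.6, 18.2 and 15.3 CPM in control and 12.4, 16.5 and 16.6 CPM with D-serine. Its lowest value was in D-serine replicate 1, and the other D-serine libraries lay within the control range. Its log2 fold change was -0.19 (SE 0.11, 95% interval -0.44 to 0.051, edgeR adjusted p = 0.286), and -0.066 without D-serine replicate 1. Mxi1 was listed on chromosome 19 from 53384996 to 53450300, plus strand. It held 76.0, 80.0 and 79.7 CPM in control and 78.7, 75.2 and 84.2 CPM with D-serine (0.015, SE 0.053, adjusted p = 0.890), and its sign turned without control replicate 1 (-0.0072) or D-serine replicate 3 (-0.030).

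Mga was listed on chromosome 2 from 119722964 to 119795317, plus strand, and has the longest exons of the network, 13931 bases against 5619 in Mxi1. Control libraries held 246, 237 and 217 CPM and D-serine libraries 181, 243 and 238 CPM. Only D-serine replicate 1, the library in which long genes were low, lay below the control range. The log2 fold change was -0.081 (SE 0.088, edgeR adjusted p = 0.585). It was 0.043 without that library (adjusted p = 0.562) and 0.088 with the length trend of each library removed (adjusted p = 0.0878), so its sign differed between these fits, for which the cause was not tested.

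**Figure D3:**
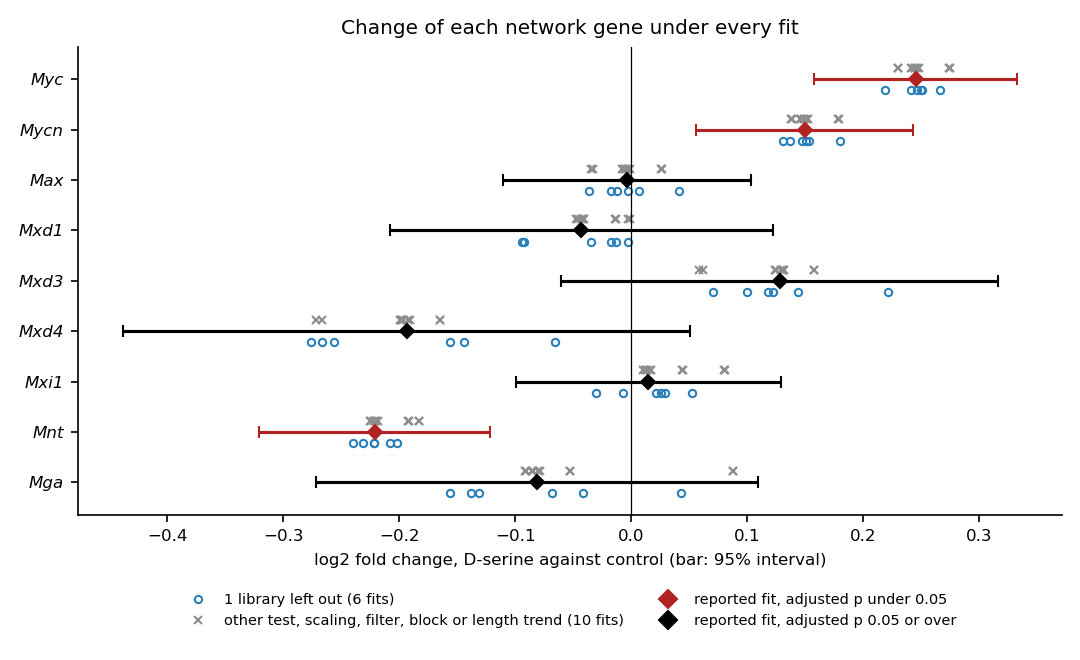
Log2 fold change of each network gene, D-serine against control, in the reported fit (diamonds, 95% interval, red where the adjusted p is under 0.05), in the 6 fits that leave out 1 library (circles) and in 10 other fits (crosses). Every fit places Myc and Mycn above 0 and Mnt below 0, while Max, Mxi1 and Mga cross 0.

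The ratios of these transcripts within a library do not depend on how libraries are scaled. They can depend on a library's trend with exon length, which is 2399 bases in Myc and 4586 in Mnt. Long genes were low in D-serine replicate 1, and the slope on exon length was lower in every D-serine library than in every control library. The ratios were not recomputed with that trend removed. They are descriptions over genes chosen with earlier results known, with no test. Control replicates 1 to 3 had 2.64, 2.60 and 2.60 times as much Myc as Mycn in TPM, and D-serine replicates 1 to 3 had 2.84, 2.83 and 2.70 times. The ratio of Myc to Mnt was 7.62, 7.47 and 7.29 in control and 11.0, 9.99 and 9.98 with D-serine, the widest separation of the 4 ratios computed. Myc was higher and Mnt lower in every D-serine library than in every control library, so the groups could not overlap in this ratio. Myc and Mycn together amounted to 3.73 ± 0.0635 times Max in control and 4.36 ± 0.167 times with D-serine (SD, n = 3 each). Against the sum of Mxd1, Mxd3, Mxd4, Mxi1 and Mnt they stood at 3.10 ± 0.00974 in control and 3.83 ± 0.251 with D-serine, where replicates 1 to 3 gave 4.12, 3.67 and 3.71. The groups did not overlap in any of these ratios. In the last of them they could not, because its upper sum was higher and its lower sum lower in every D-serine library than in every control library. All 4 ratios contain Myc, so they restate the changes of the single genes and add no separate evidence. Myc alone made up 43.2% ± 0.145 of the summed TPM of the 9 genes in control and 47.2% ± 1.23 with D-serine.

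**Figure D4:**
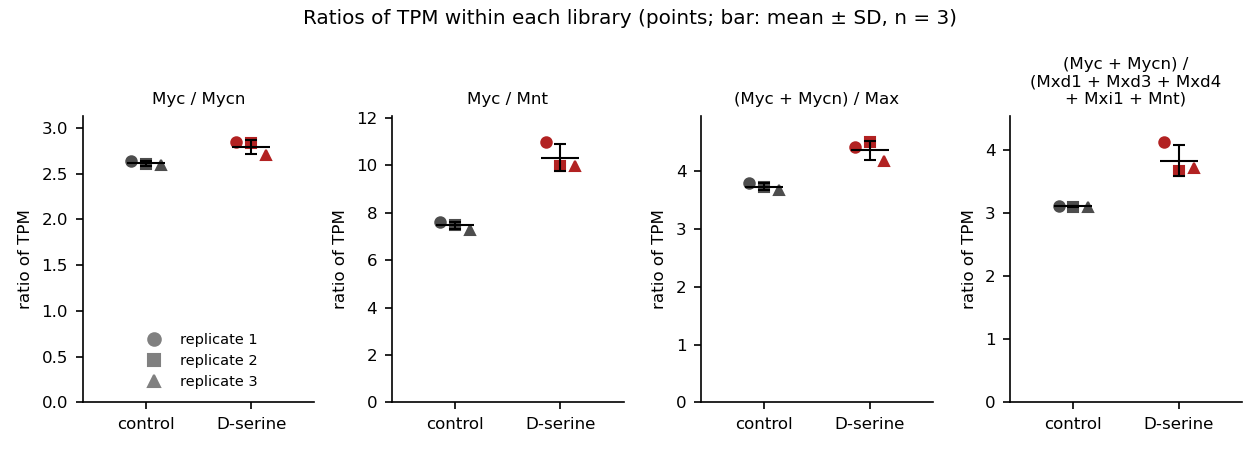
Ratios of TPM within each library, control against D-serine (points, bars mean ± SD, n = 3 each, axes from 0). In each of the 4 panels the D-serine libraries lie above the control libraries, from 2.64 at most to 2.70 at least for Myc over Mycn.

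Promoter windows of 300 bases, from 250 before to 50 after a gene's start, were found in a RefSeq table of assembly GRCm38.p6 for 8 of the 9 genes; Myc was not among them. The E-box CACGTG, which reads the same on both strands, was in the windows of Mnt, Max and Mxd4. It was in 7.15% of the 32851 windows in the table, where a gene can have more than 1 window. Counted by gene, 1163 of the 10103 tested genes with a window had it. The E2F-type strings TTTGGCGC and TTTCGCGC, searched on both strands, were in 0.514% and 0.323% of windows and, among the 8 genes with a window, in Mycn alone. E2F factors drive genes of the start of S phase. The stretches with these letters are shown because Mycn and Mnt are the called genes with a window, and Max and Mxd4 for comparison of the E-box. Each runs 5′ to 3′ on the gene's strand, with the E-box or the E2F-type strings in capitals.
Mycn (chr12:12941967-12942046, minus strand): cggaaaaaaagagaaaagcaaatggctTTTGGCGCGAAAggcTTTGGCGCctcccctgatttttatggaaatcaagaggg
Mnt (chr11:74830764-74830806, plus strand): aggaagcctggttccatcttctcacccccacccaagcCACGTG
Max (chr12:76962234-76962263, minus strand): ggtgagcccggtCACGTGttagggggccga
Mxd4 (chr5:34187912-34187941, minus strand): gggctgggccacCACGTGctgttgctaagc
In Mycn, TTTGGCGC occurs 183 to 176 and 168 to 161 bases before the RefSeq start, and TTTCGCGC on the other strand lies 179 to 172 bases before it, overlapping the first. The E-box of Mnt lies 123 to 118 bases before the start used for its window, while the start listed for the gene in RefSeq, 74830806, is the last base of that E-box. That of Mxd4 lies 219 to 214 bases before the start, and that of Max begins 3 bases before the start and runs across it. A match is a string of letters and not a measured binding site. Among the 3 genes with an E-box, Mnt fell and Max and Mxd4 did not pass the test. The share of called genes was 9.24% of the 119 tested genes with TTTGGCGC and 11.7% of the 77 with TTTCGCGC. Over the 1163 tested genes with CACGTG in a window, 56 were higher and 51 lower (9.2%), against 9.78% of the 10103 tested genes with a window, and their median log2 fold change was 0.0098 against 0.0061.

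The genes of the same neighbourhoods were compared next, named after their values were seen. Pvt1, a non-coding gene next to Myc, had 13.7 ± 0.530 CPM in control libraries against 13.8 ± 0.605 CPM in D-serine libraries (log2 fold change 0.0092, 95% interval -0.16 to 0.18, edgeR adjusted p = 0.959). Ddx1 and Nbas, which lie near Mycn and are often amplified with it in human tumours, had log2 fold changes of 0.033 (95% interval -0.057 to 0.12) and -0.016 (-0.14 to 0.11). Neither passed the test, at adjusted p-values of 0.641 and 0.895. Of the other MYC paralogue and the MLX branch of the network, 3 of 5 genes were tested. Mycl (0.28, SE 0.19), Mlx (0.12, SE 0.080) and Mlxip (-0.18, SE 0.066) did not pass, at adjusted p-values of 0.345, 0.339 and 0.0935.

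Lists of genes that act with, on or below the network were described by their counts, beside 9.74% called and a median log2 fold change of 0.0053 over all tested genes. No list was given a test of its own. Among 17 coactivators of MYC, 4 were lower and none higher, and the median was -0.15. Trrap, the scaffold of histone acetyltransferase complexes, fell from 267 ± 10.7 to 215 ± 35.1 CPM (a log2 difference of -0.31, SE 0.089, edgeR adjusted p = 0.0430). Hcfc1, a host cell factor bound by MYC, fell from 372 ± 13.8 to 301 ± 42.4 CPM (-0.31, SE 0.078, adjusted p = 0.0300). Wdr5, named after its value was seen, was also lower (-0.21, adjusted p = 0.0115), and it was not past the threshold without control replicate 1 (0.0600), control replicate 2 (0.0604) or D-serine replicate 3 (0.0526). Trrap and Hcfc1 are long, with 12476 and 8138 exonic bases, and long genes were low in D-serine replicate 1. Both passed with the length trend removed and without that library. Over the list, 10 coactivators were lower and 1 higher with the trend removed, where 15.3% of all tested genes passed. Leaving out D-serine replicate 1 or 2 gave 8 lower, with 12.5% and 11.6% of all tested genes called. Leaving out control replicate 3 gave 2 lower (3.34% of all), D-serine replicate 3 gave 1 (2.15%), and control replicate 1 or 2 gave 0 (0.921% and 0.501%). A count of 1 higher also came without D-serine replicate 1, under upper quartile scaling and with library totals.

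Among 14 regulators of Myc transcription, 4 were lower and none higher, with a median of -0.10. Foxp1, a forkhead repressor, fell from 103 ± 2.65 to 82.7 ± 3.60 CPM (a log2 difference of -0.32, SE 0.049, edgeR adjusted p = 0.00502) and passed the threshold in all 16 alternative fits. Stat3, which transmits cytokine signals, fell from 145 ± 3.41 to 124 ± 5.11 CPM (-0.23, SE 0.046, adjusted p = 0.0133). E2f2 fell from 320 ± 5.96 to 277 ± 2.50 CPM (-0.21, SE 0.039, adjusted p = 0.0115). E2f3, named after its value was seen, was the fourth (-0.17, adjusted p = 0.0286). It was not past the threshold without control replicates 1, 2 or 3 (0.0876, 0.0848 and 0.105) or D-serine replicate 3 (0.0851). E2f2 and E2f3 encode activators that read sequences of the type found before Mycn, but their binding there was not measured and a link was not tested.

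Of 17 genes that set the stability of MYC proteins, 3 were lower, with 16 fold changes below 0 and a median of -0.083. The deubiquitinases Usp36 (log2 fold change -0.21, edgeR adjusted p = 0.0150) and Usp7 (-0.17, adjusted p = 0.0228) and the scaffold Axin1 (-0.20, adjusted p = 0.0368) fell. Of 13 genes of the SIN3 and deacetylase complexes recruited by MXD proteins and MNT, 0 passed, with a median of -0.057. Of 10 partners of MGA in the Polycomb complex PRC1.6, the ligase Ring1 rose from 11.6 ± 1.14 to 15.9 ± 0.468 CPM (0.45, SE 0.088, adjusted p = 0.0127) and the median was -0.024, or 0.0061 under upper quartile scaling. Of 8 genes around Mycn or tied to it in neuroblastoma, Id2, an inhibitor of helix-loop-helix factors, rose (0.28, adjusted p = 0.0253), and the median was -0.022, or 0.0079 under upper quartile scaling and 0.00026 without D-serine replicate 1.

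Genes widely described as raised by MYC were called at 7.5%, near the 9.74% of all tested genes. Of 40 tested, 1 was higher and 2 were lower, with 19 fold changes above 0 and 21 below and a median of -0.0061. Under upper quartile scaling 2 were higher and 0 lower with a median of 0.023, where the median of all tested genes was 0.035. The median was -0.036 without D-serine replicate 1 and turned to 0.00013 when control replicate 3 was left out and to 0.0026 when D-serine replicate 3 was. Wdr12, a factor of ribosome assembly, rose from 64.6 ± 1.37 to 74.7 ± 4.02 CPM (a log2 difference of 0.21, SE 0.053, edgeR adjusted p = 0.0277). The ribosome assembly factor Rrs1 fell from 169 ± 4.48 to 150 ± 7.57 CPM (-0.17, SE 0.047, adjusted p = 0.0379). The serine enzyme Shmt2 fell as well (-0.15, adjusted p = 0.0362). Wdr12 shares 61 exonic bases with Carf and Shmt2 shares 32 with Ndufa4l2, both on the opposite strand. Of 11 genes described as lowered by MYC, 2 were higher and none lower, with a median of 0.081. Without control replicate 1 the median was 0.018, and none was higher without control replicate 1, control replicate 2 or D-serine replicate 3. With no filter on low counts 2 were higher and 2 lower, where 10.6% of all tested genes passed. A count of 1 lower also came with DESeq2, with the length trend removed and without D-serine replicate 1. Gadd45g, a stress-response gene, rose from 80.4 ± 1.46 to 98.3 ± 9.13 CPM (0.29, SE 0.061, adjusted p = 0.0157), and Ndrg2, a differentiation gene, from 8.54 ± 0.326 to 10.9 ± 0.713 CPM (0.35, SE 0.094, adjusted p = 0.0339).

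The calls in these lists depended on single libraries. Of the 17 list genes named by rule, Foxp1 alone passed when control replicate 1 or 2 was left out. Leaving out control replicate 3 kept 6 calls, D-serine replicate 3 kept 3, D-serine replicate 2 kept 14, and D-serine replicate 1 kept 16. The calls over all tested genes fell and rose with the same libraries, as given for the coactivators.

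**Figure D5:**
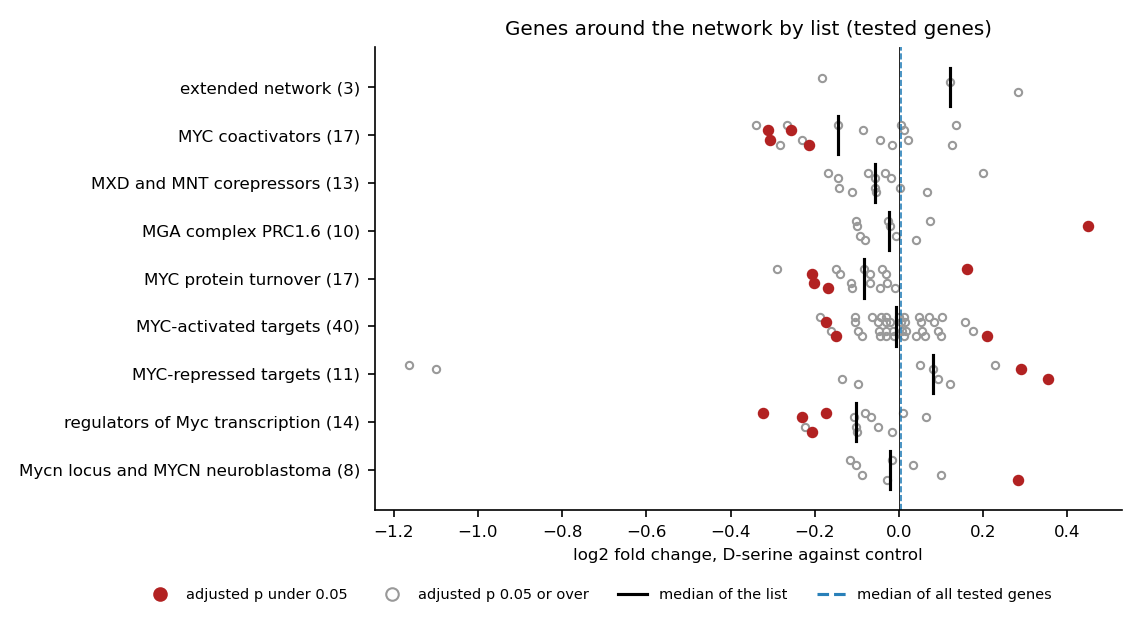
Log2 fold change of every tested gene of the 9 lists (numbers in brackets), red where the edgeR adjusted p is under 0.05, with the list median (black) and the median of all tested genes (dashed). The coactivators and the regulators of Myc have 4 red points each, all below 0, and the 40 MYC-activated targets lie around 0.

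The genes whose pattern over the 6 libraries was most like that of a called member were taken by Pearson's correlation of log2 CPM, among 9794 other genes with a mean of at least 5 CPM. These values describe 6 libraries in 2 groups that share scaling and length trend, and carry no test. For Myc they were Spsb2, Jun and Arpp19 (r = 0.997 each); Jun, an AP-1 subunit, rose from 287 to 345 CPM. For Mycn they were Tra2b (0.998), Ccdc53 (0.996) and Mrpl3 (0.996). For Mnt they were Larp1b (0.9997), Cadm1 (0.996) and Naa16 (0.995). Larp1b was not itself past the threshold (log2 fold change -0.13, edgeR adjusted p = 0.113). Spsb2 shares 25 exonic bases with the far more abundant Tpi1 on the opposite strand.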

How the data were processed

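Poly(A) RNA libraries of 6 samples were sequenced as paired ends. The authors deposited raw counts per gene with summed exon lengths in bases, with columns as featureCounts writes them per the file headers; Trim Galore, HISAT2 and builds GRCm38 and mm10 are named in the submitters' processing notes. Versions, strand setting and treatment of multi-mapped reads are not given in the sources used here. The deposited start equalled that of GRCm38 RefSeq in 313 of 23128 matched genes and in none of the 9 members, so gene coordinates are printed as deposited, 1-based, with no build claimed; promoter sequences and their coordinates are from RefSeq on GRCm38.p6.

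Counts were tested with edgeR 4.0.16 in R 4.3.3: filterByExpr (13366 genes), TMM scaling, quasi-likelihood F test, no covariate, two-sided, Benjamini-Hochberg threshold 0.05. The SE is the log2 fold change divided by the square root of F. The procedure was tested on simulated counts of 13366 genes with known changes. It recovered 25 of 67 changes of 0.25 on the log2 scale, 63 of 67 of 0.5 and 66 of 66 of 1, with 7 false calls. A gene that did not pass may therefore still have changed by an amount of the size seen in the network. Replicates of a group differed by a chi-square of 3.88 to 17.7 per degree of freedom, above sampling noise. Symbols of 27 genes had become dates and 2 were duplicated; none is named. Of each list, up to 3 genes higher and 3 lower with the largest change among those called were named, and for each called member the 3 most similar genes. Results of some genes that this rule names are not reported here. The members and lists were chosen with earlier results of these data known. Alternatives were DESeq2 1.42.0, limma-voom (limma 3.58.1), other scalings and count filters, a replicate block, removal of each library's length trend (natural spline, 5 degrees of freedom) and leaving out each library.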

Additional observations from a re-analysis of the deposited data

How the results depend on the processing

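Over 16 alternative fits the log2 fold change kept its sign for Myc (0.22 to 0.28), Mycn (0.13 to 0.18) and Mnt (-0.24 to -0.18), while their calls depended on the libraries; except where the construction of the alternative shows it, the cause was not tested. The 6 fits without 1 library called from 0 to 3 network genes, from 0 to 2 higher and from 0 to 1 lower, and from 68 to 1699 of all tested genes, from 47 to 783 higher and from 21 to 916 lower. Their highest count came without D-serine replicate 1, their lowest without control replicate 2, a smaller group in either case. In those fits Max ran from -0.037 to 0.042, Mxi1 from -0.030 to 0.052 and Mga from -0.16 to 0.043. Max turned to 0.026 under upper quartile scaling and library totals, and Mga to 0.088 with the length trend removed and 0.087 with the replicate block as well. With DESeq2 size factors in edgeR 1 network gene was higher, since Mycn lost its call. Of all tested genes, 647 were higher and 655 lower, against 914 and 412 under upper quartile scaling and 944 and 412 with library totals. Without a filter 987 were lower. With the length trend removed 2043 passed, 1023 higher and 1020 lower. With the replicate block Myc was the 1 network gene that passed (1 higher, 0 lower), and 298 genes of all passed (178 higher, 120 lower). The edgeR adjusted p was then 0.116 for Mycn and 0.0523 for Mnt. Deviations of same-numbered libraries from their group means correlated at -0.069, 0.020 and -0.019. No D-serine library correlated best with the control library of its own number, and of the control libraries only replicate 2 did so. The highest values of D-serine replicates 1 to 3 were 0.088 with control replicate 3, and 0.055 and 0.019 with control replicate 1. These values cannot settle whether same-numbered libraries were grown or handled together. The order of the 9 levels was the same in control in the 4 alternatives tried, and with D-serine 7 ranks of 9 were shared without replicate 1 or 3. Of 432 counts and medians of gene lists under the alternatives, 327 stayed close to the reported value (a count within 1.5 times) and 105 did not. The SE was 0.087 for Mxd3, 0.11 for Mxd4 and 0.088 for Mga, against 0.041 for Myc; the part of depth in this was not tested.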

Other observations

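Of the genes described as lowered by MYC, Thbs1 and Cdkn2b were rare transcripts with the largest changes in that list, both downward, and were chosen after their values were seen. Thbs1, which encodes the matrix protein thrombospondin, held 0.682, 1.46 and 1.40 CPM in control replicates 1 to 3 and 0.561, 0.653 and 0.447 CPM with D-serine. The groups did not overlap, but the log2 fold change of -1.10 (SE 0.36, edgeR quasi-likelihood test, adjusted p = 0.0701) did not pass the threshold. Its adjusted p was 0.0590 without control replicate 1 and at most 0.232 in the fits without 1 library. It passed when no filter on low counts was used. Cdkn2b, an inhibitor of cyclin-dependent kinases, held 0.744, 0.593 and 0.752 CPM in control and 0.382, 0.163 and 0.372 CPM with D-serine (-1.16 on the log2 scale with an SE of 0.41, edgeR adjusted p = 0.0871). It did not pass in any of the 6 fits without 1 library.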
